A study of Mus musculus with 18 samples.

Results

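Albumin and the other major carrier proteins of the plasma are made by hepatocytes from some of the most abundant RNAs of the liver. The genes described here are Alb, Gc, Ttr, Trf, Ahsg, Fetub, Hpx, Cp and Rbp4, 9 genes chosen by name from the GENCODE M21 annotation of GRCm38. They are 9 of 7123 genes that had an exonic peak in at least 1 of the 18 libraries, and of 55536 annotated genes in all. The livers came from mice of 8 to 9 days with the genotype Mavs-/- or Adar-/-; Mavs-/- (the latter called editing-deficient). Editing-deficient mice have no ADAR1, an enzyme that turns adenosines of double-stranded RNA into inosines, and both genotypes lack MAVS, the adaptor through which the double-stranded RNA sensor MDA5 signals. The Mavs-/- samples still edit their RNA and are called wild-type in their titles. Each genotype has 3 biological replicates of 3 fractions. Input RNA was neither incubated with MDA5 nor digested, RNase only was refolded and digested with RNases A and T1, and MDA5-protected was incubated with recombinant MDA5ΔCARD, mouse MDA5 without its CARD domains, before the same digestion.

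Albumin carries fatty acids, hormones and drugs, and vitamin D binding protein, the product of Gc, is its relative. Transthyretin (Ttr) carries thyroid hormone and also holds retinol binding protein (Rbp4), so that retinol travels in a complex of both. Transferrin (Trf) binds iron, hemopexin (Hpx) binds haem, and ceruloplasmin (Cp) is a copper-containing oxidase of iron. Fetuin-A (Ahsg) and fetuin-B (Fetub) are related proteins of the cystatin superfamily, the former an inhibitor of calcification.

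A peak is a stretch on 1 strand where the authors' caller found more reads than its background. The value used for each gene is the percentage of its exonic bases under peaks of its own strand, with exons from the transcript with the longest coding sequence. Input lists held 4326 to 8948 peaks, RNase only lists 3150 to 6094 and MDA5-protected lists 1180 to 2868, and the editing-deficient Input lists (6991 to 8948) were longer than those of Mavs-/- (4326 to 6625). No read counts are given in the lists, so how many reads lie behind a peak is unknown, and a gene without a peak is not shown to lack reads. The paper's Results give more reads for Input than for RNase only libraries, while its Methods give a lower range for Input. The part of depth in any difference between these fractions was not tested. No own-strand peak lay on Mavs in any library. Exonic peaks on Adar were found in editing-deficient Input replicates 2 and 3 and in no Mavs-/- library. Which part of Adar is deleted was not given in the sources used here, so these peaks do not check the labels. Hepatocyte markers outside the 9 genes (Apob, Cps1, Fgb, Ass1, Tat) had an exonic peak in 6 of 6 Input libraries, and markers of cholangiocytes and exocrine pancreas in none.

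In Input RNA, all 9 carrier genes had exonic peaks in all 3 libraries of each genotype. The share of all 7123 genes with such a record was 20.9% in Mavs-/- and 33.1% in editing-deficient samples. None of the 9 genes had an exonic own-strand peak in any of the 12 RNase only and MDA5-protected libraries. Of the 1291 genes with an exonic peak in all 6 Input libraries, 28.8% had one in at least 1 of these 12. The plot of exonic coverage shows the 3 fractions side by side.

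**Figure D1:**
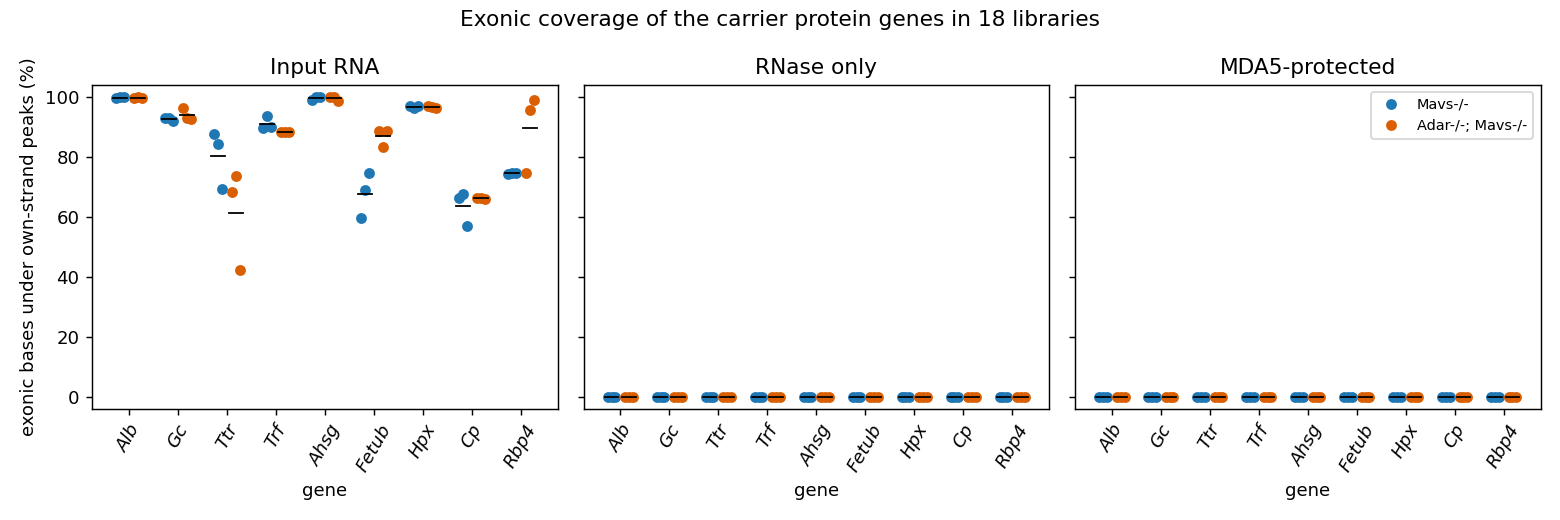
Percentage of exonic bases under own-strand peaks (vertical axis) for the 9 genes in the 3 fractions; each point is 1 library, black bars are means of 3, and colors mark the genotype. Input values run from 42.3% (Ttr) to 100% (Ahsg), and every value of both digested fractions is 0.

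Alb was covered almost end to end. Its Input coverage was 99.6%, 99.9% and 99.9% in Mavs-/- and 99.8%, 99.9% and 99.6% in editing-deficient samples, or 99.8% ± 0.136 (SD, n = 6). All 1824 bases of its coding sequence lay under peaks in 6 of 6 libraries, and the few bases missing from every library were 3 of the 38 of the 5′ UTR. Gc reached 93.3% ± 1.57 (SD, n = 6), with 92.9%, 93.1% and 91.9% in Mavs-/- and 96.4%, 92.8% and 92.8% in editing-deficient samples. Its coding sequence was covered at 99.8% or more, whereas its 5′ UTR of 180 bases was covered at 28.9% to 69.4%.

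The retinol and thyroid hormone carriers varied more. Ttr was covered at 87.5%, 84.4% and 69.4% in Mavs-/- and at 68.2%, 73.6% and 42.3% in editing-deficient samples. The spread came mainly from its 3′ UTR, which was covered at 99.7%, 93.3% and 62.6% in Mavs-/- and at 74.6%, 71.5% and 22.2% in editing-deficient samples. Rbp4 was covered at 74.4%, 74.6% and 74.7% in Mavs-/- and at 74.5%, 95.5% and 99.1% in editing-deficient samples. The step in Rbp4 lay in exon 1 of the transcript used, Rbp4-201, a stretch of 294 nt covered at 93.2% and 96.3% in editing-deficient replicates 2 and 3 and at 0 in the other 4 libraries. Over the shorter transcript Rbp4-202, which starts at another first exon, coverage was 96.4%, 96.6% and 92.4% in Mavs-/- and 96.5%, 96.7% and 92.4% in editing-deficient samples, and the genotypes overlapped.

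The iron, haem and copper genes differed from each other mostly at their ends. Hpx was covered at 96.7% ± 0.360 (SD, n = 6), with its coding sequence complete in all 6 libraries and 37 of 47 bases of its 5′ UTR covered in none. Trf was covered at 89.5%, 93.8% and 90.0% in Mavs-/- and at 88.3%, 88.3% and 88.2% in editing-deficient samples. Of its 17 exons, only exon 11, 33 nt long, was missed in some libraries, and it lay under a peak in Mavs-/- replicate 1 alone. The first 30 bases of this exon are shown because it is the only coding stretch of Trf that lacked peaks (chr9:103219226-103219255, minus strand).
Trf exon 11: agagctctaattgtgccatcccatcacaac
These bases follow the gene's own strand.

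Cp showed how much the choice of transcript matters. Over Cp-205, the transcript used, it was covered at 66.1%, 67.5% and 56.8% in Mavs-/- and at 66.2%, 66.2% and 66.0% in editing-deficient samples. No Input library had a peak on the last 2 exons of Cp-205, the final one being 1060 nt long, nor on the last exons of Cp-201, Cp-204 and Cp-214, which lie in the same downstream region. The transcript Cp-202 ends earlier, in a last exon of 630 nt at chr3:19992509-19993138. That exon was covered at 55.9%, 77.3% and 56.7% in Mavs-/- and at 90.6%, 64.8% and 64.4% in editing-deficient samples, and the whole of Cp-202 at 73.2% to 89.2%. Peaks on Cp in 6 of 6 Input libraries thus reached the earlier last exon and none of the later ones. Alternative 3′ splicing of ceruloplasmin is known to give a secreted and a membrane-anchored form, and the lists do not say which form a read came from.

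The fetuins differed from each other. Ahsg was covered at 99.0%, 100% and 100% in Mavs-/- and at 100%, 100% and 98.8% in editing-deficient samples. Peaks also lay on 51.7% to 92.2% of its intronic bases, against 9.58% to 78.2% for Alb, 14.6% to 58.6% for Trf, 0.213% to 0.942% for Gc and 0.108% to 0.518% for Fetub. Fetub was covered at 59.6%, 69.1% and 74.6% in Mavs-/- and at 88.8%, 83.3% and 88.8% in editing-deficient samples. Of the 101 exons of the 9 genes, 87 had a peak in all 6 Input libraries and 3 in none (Fetub exon 2 and Cp exons 19 and 20), whereas 41.3% of the 9950 exons of all 1291 genes with an exonic peak in all 6 Input libraries had none.

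**Figure D2:**
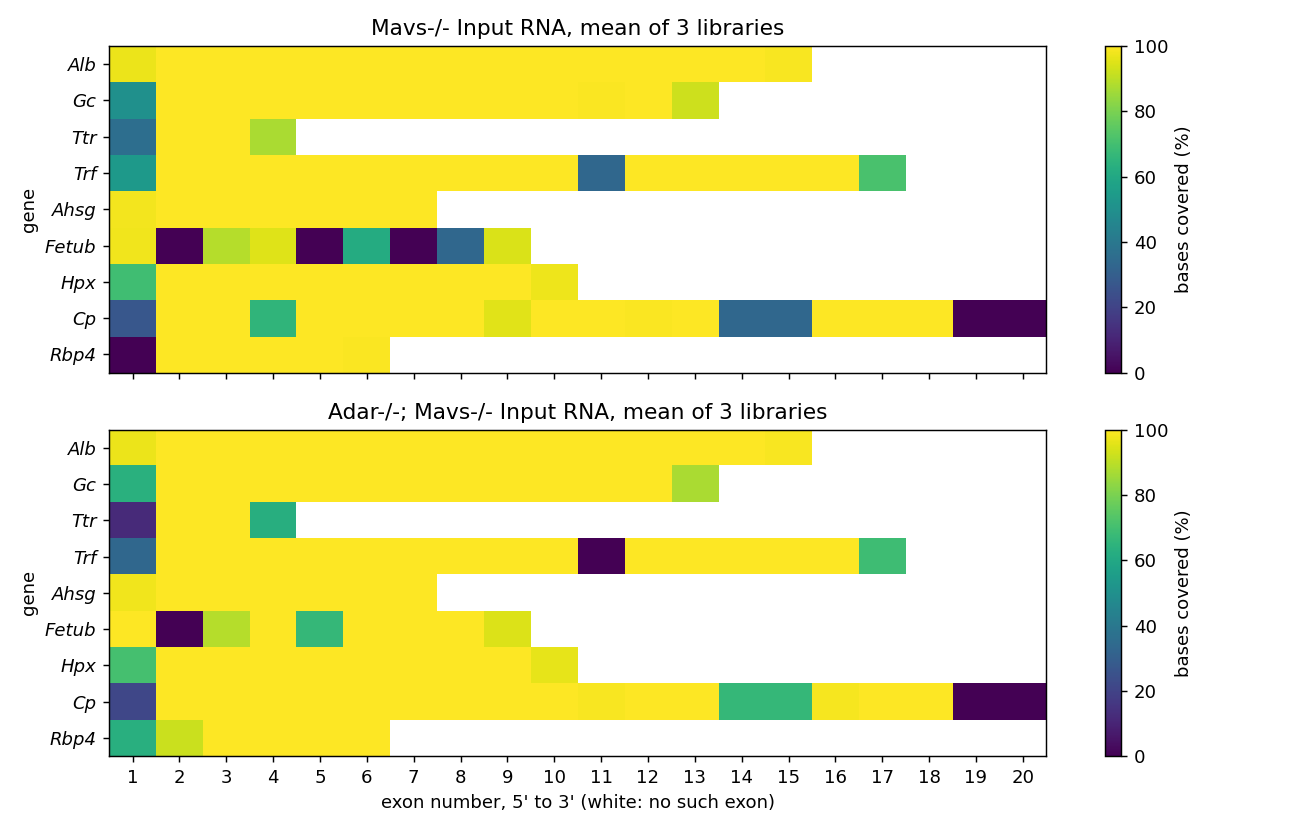
Mean percentage of bases under own-strand peaks for each exon (horizontal axis, numbered from the 5′ end) of each gene (vertical axis) in the 3 Mavs-/- (top) and 3 editing-deficient (bottom) Input libraries. The widest gaps lie in first exons, in Trf exon 11, in Fetub exons 2 and 5 to 8, in Cp exons 14, 15, 19 and 20 and in Rbp4 exon 1, and Fetub exon 7 goes from 0 to 100%.

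For a level that allows for length, the summed area of a gene's exonic peaks was divided by its exonic length and ranked within the library, 1 being the highest. A peak that touched an exon counted with its whole area, so area over adjoining introns is included, here and in the area percentiles below. Intronic bases under Input peaks reached 92.2% for Ahsg, 78.2% for Alb and 58.6% for Trf, but only 0.942% for Gc and 0.518% for Fetub. How far this shifts the order was not tested. Ahsg (ranks 33 to 42), Alb (34 to 46) and Trf (44 to 60) stood highest, Alb overlapping with both others and Ahsg not with Trf. Hpx followed at 73 to 86, then Rbp4 at 96 to 155, Gc at 128 to 149 and Ttr at 86 to 261, 3 genes whose ranges also overlapped. Fetub (249 to 445) and Cp (298 to 416) stood lowest and overlapped too. The Cp value divides by all exons of Cp-205, with exons 19 and 20 that had no Input peak, and leaves out the last exon of Cp-202. A rank of Cp over Cp-202 was not computed. The area grows with significance as well as with reads, so this order is one of peak strength.

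**Figure D3:**
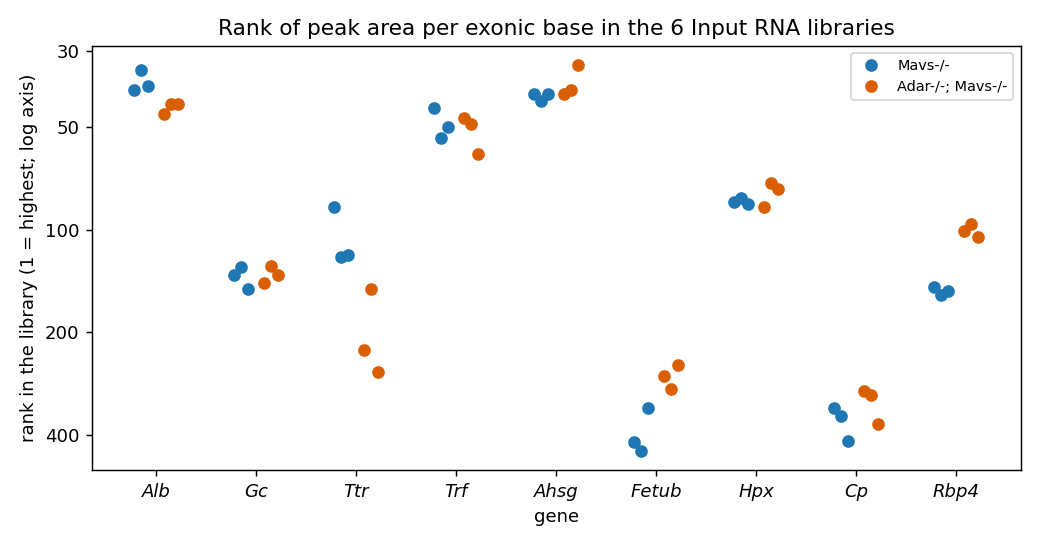
Rank of the peak area per exonic base within each Input library (vertical log axis, 1 = highest, inverted) for the 9 genes, with 1 point per library and colors for the genotype. Alb, Trf and Ahsg sit at ranks 33 to 60 in all 6 libraries, and the genotypes separate for Alb, Ttr, Fetub and Rbp4.

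Whether editing deficiency goes with other Input coverage was asked by comparing 3 libraries with 3, where no exact permutation test can give a p under 0.10. Among all 5185 genes with an Input peak, 16.6% had coverage in editing-deficient samples above that of Mavs-/- without overlap, and 3.01% had it below. Of the 9 carrier genes, Fetub was above, by 19.2 percentage points (87.0% ± 3.18 against 67.8% ± 7.60, SD, n = 3 each, exact permutation p = 0.10, adjusted p = 0.509 over the 5185 genes). Trf was below, with a difference of -2.81 percentage points (88.3% ± 0.0594 against 91.1% ± 2.33, SD, n = 3 each, exact permutation p = 0.10, adjusted p = 0.509). The Trf difference had no common source. Mavs-/- replicate 1 was above through exon 11. Replicates 2 and 3 were above mainly through the 5′ UTR (75.0% and 39.5%, against 20.6% to 21.1% in editing-deficient samples). By the within-library percentile of the summed peak area, 6 genes were above (Alb, Trf, Ahsg, Fetub, Cp and Rbp4) and 1 below (Ttr), against 19.4% and 4.71% of all genes, so Trf turned its direction between these measures. The lists so ranked held 1895 to 2995 genes in Mavs-/- and 3004 to 3701 in editing-deficient samples. A gene at the same rank from the top has a higher percentile in a longer list. How much of the 6 rises comes from list length was not tested. The Fetub groups overlapped when each library kept equal numbers of peaks, and so did the Trf groups then, over the union of all exons, and at a minimum peak area of 1000. Without Mavs-/- replicate 3 or editing-deficient replicate 2, Ttr was also below, making 2, and without editing-deficient replicate 1 Rbp4 was also above, making 2. The groups of the other 7 genes overlapped, Ttr with exact p = 0.20 and Rbp4 with exact p = 0.30. No such difference passed the adjusted threshold of 0.05, which 3 against 3 libraries cannot reach.

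The Fetub difference was made by a run of coding exons. Exon 7 (99 nt) lay under a peak in 3 of 3 editing-deficient and 0 of 3 Mavs-/- libraries, exon 5 (88 nt) in 2 and 0, exon 8 (111 nt) in 3 and 1, and exon 6 (164 nt) in 3 and 2. Exon 2, a noncoding exon of 127 nt, lay under no peak. The start of exon 7 is shown as the exon that separated the genotypes (chr16:22935642-22935671, plus strand).
Fetub exon 7: tgggtgtctggccctgcttactatgtggaa
Among the 9950 exons named above, 2.11% had a peak in all 3 editing-deficient and no Mavs-/- Input library and 0.201% the reverse. Fetub exon 7 was 1 of 101 member exons with the former pattern, and none had the latter.

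By area per base, Fetub (249, 269 and 293 against 332, 418 and 445) and Rbp4 (96, 101 and 105 against 147, 151 and 155) ranked nearer the top in editing-deficient samples, where 16% of the 1291 genes did so without overlap. Ttr (149, 225 and 261 against 86, 119 and 120) and Alb (43, 43 and 46 against 34, 38 and 39) ranked farther from it, as did 24.9% of these genes. Alb turned with the scale, since its within-library area percentile was higher in editing-deficient samples (99.8, 99.6 and 99.7 against 99.4, 99.3 and 99.5). Intronic coverage in Input moved with these ranks for both retinol carriers. This is partly built in, since the ranked area includes that of exonic peaks that reach into introns. Peaks covered 1549, 3835 and 4162 intronic bases of Rbp4 in editing-deficient samples and 298, 320 and 1035 in Mavs-/-, and 226, 310 and 758 of Ttr in editing-deficient samples against 1247, 2340 and 4992 in Mavs-/-. Hpx had 644, 1311 and 1410 against 314, 521 and 562. Of 935 genes with intronic bases and an exonic peak in all 6 Input libraries, 13.7% were higher in this way and 2.25% lower.

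Of the other marker lists, the hepatocyte and erythroid sums did not overlap between genotypes in the same libraries. The summed coverage of 5 hepatocyte markers, in percentage points, was 282 to 319 in Mavs-/- and 381 to 407 in editing-deficient samples, and that of 5 erythroid markers 368 to 400.4 and 302 to 341, with Alas2, which acts in haem synthesis of red cell precursors, at 0 in all 3 editing-deficient libraries. By mean coverage, Apob stood at 99.3% in both genotypes, while Cps1, Fgb, Ass1 (19.3% to 53.7%) and Tat (63.8% to 93.4%) were higher in editing-deficient samples. Among single genes with an Input peak, 16.6% were above and 3.01% below without overlap, and no such share was computed for sums. The ranges of the other lists overlapped. Stellate and fibroblast markers (4 genes) summed to 74.2 to 158 and 36.5 to 74.3, Kupffer markers (4 genes, Cd68 at 0) to 117 to 170 and 161 to 171, endothelial markers (3 genes, Pecam1 at 0) to 0 to 20.5 and 18.0 to 23.4, and muscle markers (3 genes, Ckm and Myh1 at 0) to 0 and 0 to 90.2. The part of cell makeup and of list length in the Fetub, Trf, Rbp4, Ttr, Alb, Ahsg and Cp values was not tested. Fewer cells of a type cannot be told apart from less RNA per cell in whole liver.

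Opposite-strand Input peaks lay over exons of 3 of the 9 genes, all in Mavs-/- libraries. Alb had 1, 2 and 7 such peaks in Mavs-/- replicates 1, 2 and 3, on 210, 342 and 1186 exonic bases, and 0 in each editing-deficient library. Trf had 3, on 508 exonic bases, and Ahsg 1, on 478, in Mavs-/- replicate 3 only. Of the 1291 genes with own-strand exonic peaks in all 6 Input libraries, 5.03% had an opposite-strand exonic peak in at least 1 Input library, and 0.852% (11 genes, Alb among them) were lower in editing-deficient libraries without overlap, with 0 higher. No digested library had an opposite-strand peak over exons of these 3 genes.

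The comparison of RNase only with Input asks which exonic stretches withstand digestion without MDA5. All 9 genes were called lower in RNase only, from 64.8% ± 3.97 for Cp to 99.8% ± 0.136 for Alb in Input down to 0 in 6 of 6 RNase only libraries (exact permutation within genotype, p = 0.005, the smallest it can give, adjusted p = 0.0252 over 7042 genes). Across these 7042 genes, 17.6% were called lower and 2.66% higher, and of the 1291 genes with an exonic peak in all 6 Input libraries 95.9% were called lower. A gene with peaks in all 6 Input and in no RNase only library gets the smallest p by construction, so the call adds nothing to the counts of libraries above. The RNase only lists were called with Input as control and the Input lists without one, so digestion and calling cannot be told apart in such a difference. Of the genes with an exonic peak in all 6 Input libraries, 28.3% had one in at least 1 RNase only library and 4.42% in at least 1 MDA5-protected library. Among the 580 of these genes covered at least as well as the lowest value of the 9, these shares were 22.2% and 4.48%, and among the 100 with the highest ranks of peak area 22% and 14%. For MDA5-protected against RNase only, the 9 genes gave no exonic value to test. Across the 3451 genes with one, 0 passed at an adjusted p of 0.05 in the exact permutation test and 558 had an unadjusted p of 0.05 or less.

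Digested peaks on these genes lay wholly in introns. Own-strand intronic peaks in at least 1 of 12 digested libraries were found in 4 of the 9 genes (Alb, Gc, Ahsg and Cp), against 18.2% of the 935 genes with intronic bases and exonic Input peaks in all 6 libraries. Ttr, Trf, Fetub, Hpx and Rbp4 had no digested peak on either strand. Exon junctions that flank the introns concerned place these peaks in the transcripts. In each, the last 15 bases of the upstream exon are in lower case and the first 15 of the downstream exon in capitals, on the gene's strand, from the GENCODE M21 transcripts.
Gc exons 8 and 9: acaagccatggaccaGTATACATTTGAACT
Alb exons 12 and 13: gattaagaaacaaacGGCTCTTGCTGAGCT
Ahsg exons 1 and 2: aaggtgtggtctcggCGGCCCTTCGGAGTG
Ahsg exons 5 and 6: ctgctggcagagaagCAACATGGCTTCTGC
Cp exons 18 and 19: taccagtagaacaagTATCATCTCAGAGTT
The sequence inside the introns was not analysed here.

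**Figure D4:**
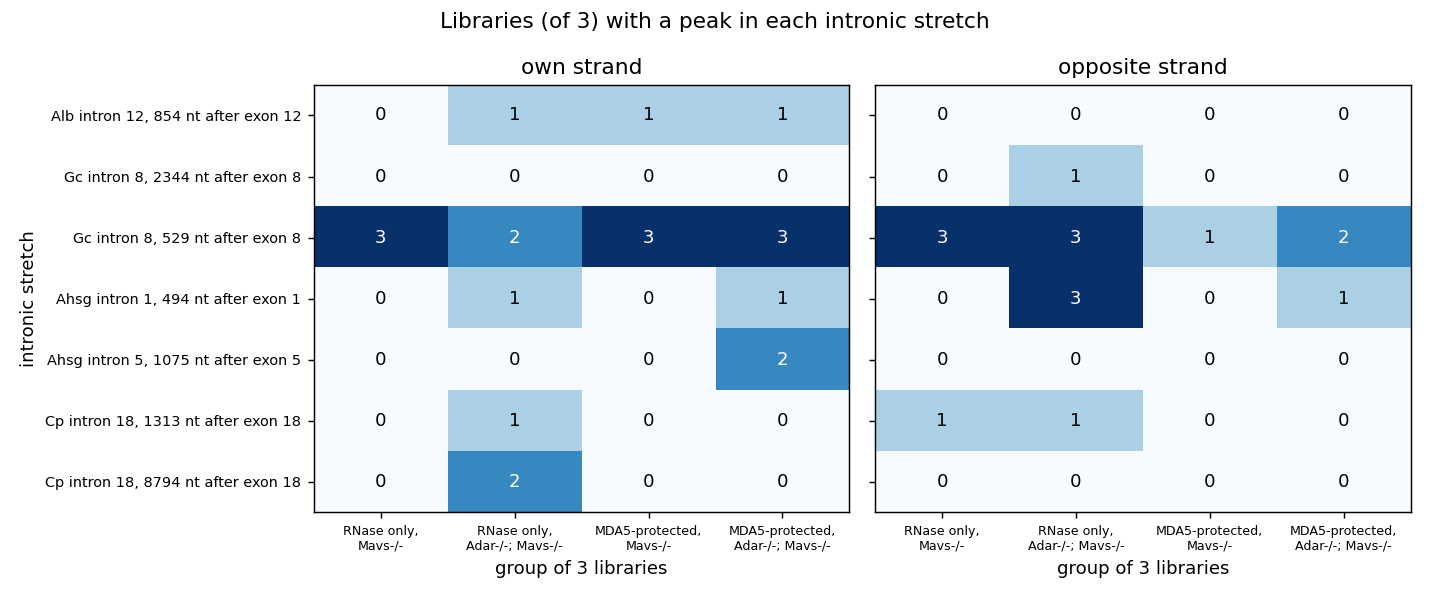
Number of libraries (of 3) in each digested group (horizontal axis) with a peak in each of the 7 intronic stretches (vertical axis), on the gene's own strand (left) and the opposite strand (right). The stretch of Gc 529 nt after exon 8 is filled in 11 of 12 libraries on its own strand, and no other stretch in more than 3.

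The most recurrent position was in Gc. It spans chr5:89437436-89437716 in intron 8 of 12, an intron of 2597 nt, from 529 nt after exon 8 to 1787 nt before exon 9. On the minus strand, which Gc is transcribed from, it held a peak in 3 of 3 Mavs-/- and 2 of 3 editing-deficient RNase only libraries and in 6 of 6 MDA5-protected libraries. A core of 142 nt (chr5:89437450-89437591) was shared by all 11, and no Input library had a peak there on either strand. Of these 935 genes, 0.963% (9 genes) had a wholly intronic own-strand peak in all 6 MDA5-protected libraries, Gc among them. On either strand of the genome, 203 stretches held a peak in at least 11 of the 12 digested libraries.

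The own-strand Gc peaks were longer in the MDA5-protected libraries. They measured 276, 203 and 280 nt in Mavs-/- and 190, 227 and 233 nt in editing-deficient samples, against 177, 175 and 158 nt in Mavs-/- RNase only and 143 and 156 nt in editing-deficient RNase only replicates 2 and 3. No RNase only length reached the shortest MDA5-protected one. The means were 235 ± 36.9 nt (SD, n = 6) and 162 ± 14.2 nt (SD, n = 5), and the mean difference within genotypes was 75.1 nt. The position and the comparison were chosen after the lengths were seen, so no test is given, and with any 1 library left out the difference was 68.3 to 87.6 nt. Of 88 stretches with 1 peak in each of 6 MDA5-protected and at least 5 RNase only libraries, 3.41% (3 stretches) had every MDA5-protected peak longer and 0 every one shorter. Between genotypes the MDA5-protected lengths overlapped (217 ± 23.3 against 253 ± 43.3 nt, SD, n = 3 each).

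The peak was of middling strength in its lists. Its area under the significance curve was 968, 676 and 551 in Mavs-/- RNase only and 756 and 735 in editing-deficient RNase only. In MDA5-protected libraries it was 1439, 777 and 814 in Mavs-/- and 1110.3, 1087 and 982 in editing-deficient samples. The smallest area in any list was 500.008. By area it ranked within the top 14.1% to 43.4% of peaks in the MDA5-protected lists and the top 26.5% to 80.5% in the RNase only lists.

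The same place also held peaks on the plus strand, opposite to Gc. These were in 6 of 6 RNase only libraries, in 1 of 3 Mavs-/- and 2 of 3 editing-deficient MDA5-protected libraries, and 8 libraries had both strands. In RNase only they measured 92, 148 and 144 nt in Mavs-/- and 94, 146 and 139 nt in editing-deficient samples. No other gene is annotated there. Replicate 1 of editing-deficient RNase only, the library without the own-strand peak, had the opposite-strand one with an area of 1150.0, and a further plus-strand peak of 119 nt 134 nt before exon 9.

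**Figure D5:**
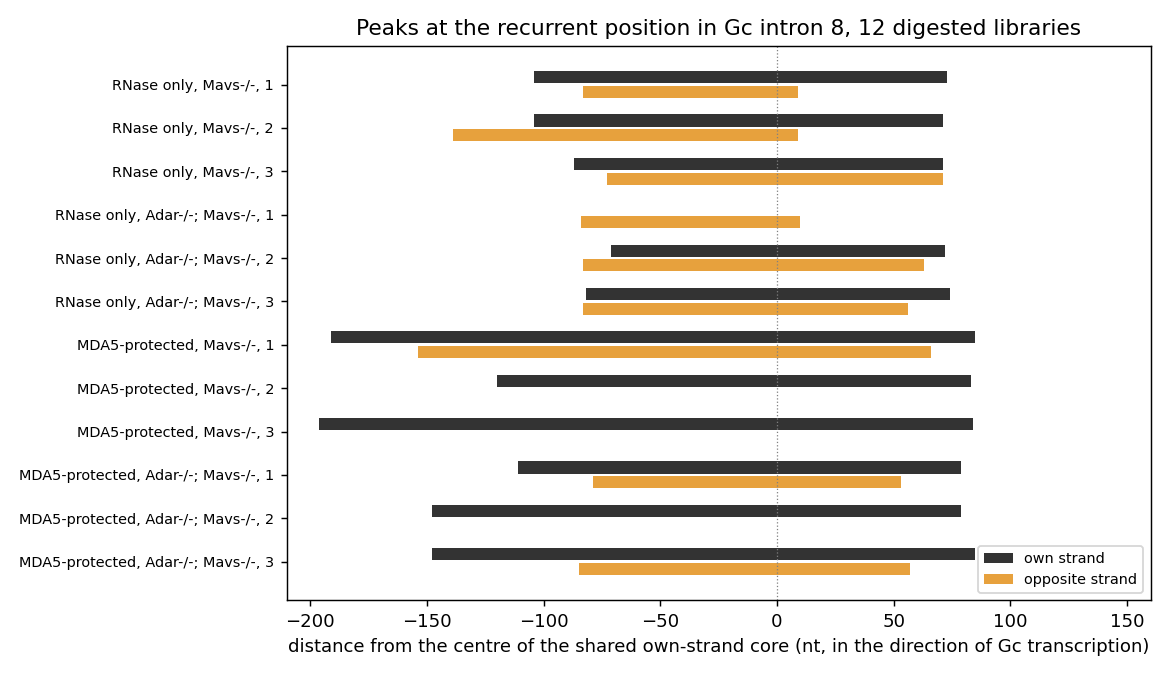
Peaks at the recurrent position in intron 8 of Gc in each of the 12 digested libraries (vertical axis), drawn to scale as distance in nt from the centre of the shared core, in the direction of Gc transcription; dark bars are the gene's own strand and light bars the opposite one. Own-strand MDA5-protected bars (190 to 280 nt) run past the RNase only bars (143 to 177 nt), mainly on the upstream side.

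The MDA5-protected bases that remain once RNase-resistant ones are removed were found by joining bases seen in at least 2 of 3 libraries. In Gc, RNase-resistant stretches of 175 nt in Mavs-/- and 143 nt in editing-deficient samples recurred. Their removal left 87 nt (chr5:89437625-89437711) and 13 nt in Mavs-/-, and 77 nt (chr5:89437592-89437668) in editing-deficient samples. The longer pieces lay on the side nearer to exon 8 in both genotypes. The counts over all 9 genes were 1 RNase-resistant and 2 MDA5-protected stretches in Mavs-/-, and 2 of each in editing-deficient samples, the additional ones being in Cp and Ahsg. The Ahsg stretch was lost without MDA5-protected replicate 2 or 3, the Cp stretch without RNase only replicate 1, both editing-deficient RNase-resistant stretches without replicate 2, and the Gc one without replicate 3. At a minimum area of 1000, no RNase-resistant stretch recurred in either genotype, and 0 and 1 MDA5-protected stretches were counted, the latter with no RNase-resistant stretch to remove.

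The other positions were seen in few libraries. Alb had an own-strand peak in intron 12 of 14 (chr5:90473539-90473677) in 1 editing-deficient RNase only library (127 nt, area 532), 1 Mavs-/- MDA5-protected library (132 nt, area 628) and 1 editing-deficient MDA5-protected library (139 nt, area 592). All 3 were replicates numbered 3, shared a core of 127 nt, and had no Input peak over them. The Alb position recurred in no group of 3 libraries, so it was not counted as a recurrent stretch.

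Ahsg had 2 intronic positions, and digested peaks lay on them in editing-deficient libraries alone. In intron 1 (chr16:22892822-22893068), where the antisense gene Gm30505 overlaps with an intron of its own, an own-strand peak was found in 1 RNase only (221 nt, area 1078) and 1 MDA5-protected library (188 nt, area 847). Opposite-strand peaks were there in 3 of 3 editing-deficient and 0 of 3 Mavs-/- RNase only libraries, with areas of 565, 889 and 647, and in 1 MDA5-protected library. In intron 5 of 6 (chr16:22897685-22897856), editing-deficient MDA5-protected replicates 2 and 3 had own-strand peaks of 134 and 172 nt with areas of 516 and 579, and no RNase only library had one. Own-strand Input peaks lay over the first position in 5 of 6 and over the second in 2 of 6 Input libraries. By area, the intron 5 peaks ranked 2614 of 2768 and 2141 of 2868 in their lists. RNase only lists held 3150 to 5572 peaks in Mavs-/- and 5605 to 6094 in editing-deficient samples, and MDA5-protected lists 1180 to 1829 and 1636 to 2868. How many other stretches show peaks in editing-deficient libraries alone was not counted, and the difference between genotypes at these positions was not tested.

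Both Cp positions were in intron 18, 16248 nt long in Cp-205. The first (chr3:19990532-19990704) lies before the last exon of the shorter Cp-202 and held an own-strand peak in editing-deficient RNase only replicate 1 (173 nt, area 696) and opposite-strand peaks in that library and in Mavs-/- RNase only replicate 1. The second (chr3:19998013-19998202) lies beyond the end of Cp-202, within an intron of Hps3, which is transcribed from the other strand. It held peaks on the strand of Cp in editing-deficient RNase only replicates 1 and 2 (190 and 154 nt, areas 624 and 506). No MDA5-protected or Input library had a peak at either Cp position.

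The related carriers were read in the same way. Of 15 further plasma or cytosolic carriers, 13 had an Input peak, 11 in all 6 libraries, none had an exonic digested peak, and 11 of the 13 tested were called lower in RNase only. Of all 1291 genes with an exonic peak in all 6 Input libraries, 95.9% were called lower, so these calls add nothing to the counts of libraries. Afp, the fetal relative of albumin, was covered at 94.9% to 96.6% in Input and had no own-strand digested peak. Afm, another member of the albumin family, was covered at 0 to 56.5% in Input and had wholly intronic peaks in 4 RNase only and 4 MDA5-protected libraries, and Igfbp2, which binds insulin-like growth factors, in 2 MDA5-protected libraries. Orm1 and Orm2 had no Input peak.

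Of 11 genes that receive or handle the cargo, 8 had an Input peak, 6 in all 6 libraries. Of these 8, 6 were called lower in RNase only, beside the same share of 95.9%. Exonic RNase only peaks were found in 3 of them, Tfrc (the transferrin receptor), Slc40a1 (ferroportin, the iron exporter) and Fth1 (ferritin heavy chain), each in 2 libraries and on at most 9.63%, 8.84% and 20.9% of exonic bases. None of the 11 had an exonic MDA5-protected peak. Hamp, which encodes hepcidin, had wholly intronic peaks in 1 RNase only and 1 MDA5-protected library, and Tfrc in 2 MDA5-protected libraries. Hfe, Cd163 and Lrp2 had no Input peak.

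Genes whose coverage over the 18 libraries was most like that of the 9, by Pearson's r among 310 candidates, were high in Input and at or near 0 after digestion, so r was near 1 for many genes (for example 0.998 for Alb and Fads2), and the value is a description only.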

How the data were processed

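The data are 18 peak lists, 1 per library, grouped by the genotype and fraction in the labels. Per the labels, reads were trimmed with Trim Galore 0.6.6 and peaks called with Genrich 0.6.1 on GRCm38. The authors aligned with NextGenMap and called each strand separately, with the Input of the same genotype as control for digested libraries and rRNA and blacklisted regions excluded. The deposited signal of a peak is the area under its significance curve (at least 500.008), and the deposited −log10 p-values are Genrich's (weakest adjusted 3.12). Both grow with depth. The lists give no read counts, so the precision per peak is unknown. The paper's Results give more reads for Input than for RNase only, and its Methods a lower range for Input. The score column the authors deposited was not used. Replicates were called biological. The exact p-values count the arrangements of these libraries with a difference at least as large, so complete separation gives the smallest p whatever the spread.

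Exons came from the transcript with the longest coding sequence. Coverage was compared between fractions by two-sided exact permutation within genotype (400 arrangements) with Benjamini-Hochberg adjustment over all genes tested, called at 0.05, and between genotypes by non-overlap. Recurrent stretches needed 2 of 3 libraries and 10 bp. The code of the tests was run on simulated coverage with normal noise and planted differences. That setting is unlike these lists, where many values are exactly 0, so it checks the code alone. All 9 genes are named by rule, and genes of the other lists where they had a digested peak or lay at an end of the range. The members, lists and tests were chosen with earlier results of these data known. Alternatives were the union of exons, strands ignored, a minimum area of 1000, peaks within 200 bp of another replicate's, equal numbers of peaks per library, ranks of area, each library left out and the replicate number as a block. Area per exonic base, exon and intron coverage by transcript and the Gc peak length were added after the data were seen. Python 3.11.15, numpy 2.4.6 and matplotlib 3.10.9 were used. Positions are counted from 1. Some items of the lists are not reported here.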

Additional observations from a re-analysis of the deposited data

Results flagged for a closer look

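Peaks on the strand opposite to the gene were outside the comparisons of own-strand coverage. They were found in digested libraries at 4 intronic stretches where no Input library had a peak on that strand. The Gc stretch 529 nt after exon 8 had them in 9 of 12 digested libraries, and the Gc stretch 2344 nt after exon 8 in 1. The Ahsg stretch in intron 1 had them in 4, and the Cp stretch 1313 nt after exon 18 in 2.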

How the results depend on the processing

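Exonic peaks in all 6 Input libraries and in none of the 12 digested ones were found for all 9 genes with the union of exons, with strands ignored, at a minimum area of 1000 and with equal numbers of peaks. Deviations of same-numbered Input and RNase only libraries correlated at -0.062 to 0.0167 in Mavs-/- and -0.109 to -0.0623 in editing-deficient samples. For libraries with other numbers the correlations were -0.0225 to 0.0765 and 0.0202 to 0.0564. Same-numbered libraries were thus not more alike, and in editing-deficient samples all were less alike. Whether the numbers pair these fractions was not settled. Between RNase only and MDA5-protected the same-numbered correlations were 0.117 to 0.236 in editing-deficient samples, every pair over 0.1, and 0.0595 to 0.266 in Mavs-/-, where not every pair was. With the replicate number as a block, an exact sign-flip test of 6 pairs cannot go below p = 0.03125, and 0 of the 9 genes were called lower in RNase only (adjusted p = 0.156), while 2 genes were higher and 2 lower in editing-deficient Input in all 3 pairs.

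Genotype counts in Input (1 higher, Fetub, and 1 lower, Trf) changed with the setting. The union of exons gave 0 lower. A minimum area of 1000 gave 2 higher (Fetub and Cp) and 0 lower. Equal numbers of peaks per library gave 0 higher and 1 lower, then Ttr. The within-library percentile of area gave 6 higher and 1 lower, against a background of 19.4% higher and 4.71% lower, and area per exonic base 2 and 2. At the same rank, that percentile is higher in the longer editing-deficient lists. With 1 library left out the counts ran from 1 to 2 in both directions: Ttr joined the lower genes without Mavs-/- replicate 3 or editing-deficient replicate 2, and Rbp4 the higher without editing-deficient replicate 1.

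Recurrent RNase-resistant stretches (1 in Mavs-/-, 2 in editing-deficient samples) became 0 and 0 at an area of at least 1000, and the editing-deficient count 1 with equal numbers of peaks and 0 to 1 with an RNase only library left out, 0 being without replicate 2. MDA5-protected stretches after subtraction (2 and 2) became 0 and 1 at that area, and the editing-deficient count 1 with equal numbers of peaks and 1 to 2 with a library left out, 1 being without MDA5-protected replicate 2 or 3. Joining peaks within 200 bp of another replicate's gave 3 MDA5-protected stretches in editing-deficient samples, and ignoring strands 3 RNase-resistant ones there. The cause of these changes was not tested. The lists hold no read counts, so a missing peak sets no upper limit.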
